A study of Mus musculus with 9 samples.

Results

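The genes described here are 10 core components of transforming growth factor beta (TGF-beta) signalling in long-term haematopoietic stem cells (LT-HSC). They are the ligands Tgfb1, Tgfb2 and Tgfb3, the receptors Tgfbr1 and Tgfbr2, the receptor-regulated Smads Smad2 and Smad3, the common mediator Smad4, and the inhibitory Smads Smad6 and Smad7. A member was taken from probe sets annotated to exactly 1 gene symbol, choosing per gene the probe set with the highest mean over all 9 arrays. All 10 members were measured, each by 1 probe set, among 22180 genes in all.

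Expression was profiled on Affymetrix mouse gene arrays in bone marrow cells of C57BL/6 mice sorted as Lin-Sca-1+c-kit+CD34-CD135-. The 9 arrays made up 3 genotypes with 3 biological replicates each, and the labels do not say whether a replicate was 1 animal or a pool. The controls were labelled WT, and the labels do not say whether they carried the Cre transgene. The second genotype, MxCre Jak2VF/+ (Jak2VF below), carried 1 Jak2 allele with the VF mutation together with MxCre, a Cre recombinase driven by the interferon-inducible Mx1 promoter, which is active in blood cells and in other tissues. The third genotype, MxCre Jak2VF/+ EZH2-/- (Jak2VF EZH2-/- below), carried in addition the deletion of Ezh2, the methyltransferase of Polycomb repressive complex 2. All groups were taken 12 weeks after pI-pC, an inducer of interferon given as 5 doses of 300 µg at 4 weeks of age, so the treatment was shared by controls and mutants.

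TGF-beta ligands are secreted as latent complexes and, once released, bind the type II receptor Tgfbr2, which recruits and phosphorylates the type I receptor Tgfbr1. Tgfbr1 phosphorylates Smad2 and Smad3, which join Smad4, enter the nucleus and regulate target genes together with partner transcription factors. Smad7 and Smad6 are induced as feedback inhibitors, Smad7 acting mainly on the TGF-beta branch and Smad6 mainly on the bone morphogenetic protein (BMP) branch. In bone marrow, TGF-beta signalling is known for holding stem cells in quiescence, and the pathway acts largely through phosphorylation, which RNA levels do not measure.

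The proximal promoters of Tgfb1 and Smad3 are shown because these were the members whose Jak2VF EZH2-/- arrays all lay above every WT array. Each is the 250 bases upstream of the transcription start in RefSeq (GRCm38.p6), on the strand of the gene, with matches to the GC box GGGCGG on either strand in capitals. Tgfb1 lies on the plus strand at chr7:25686752-25687001, and Smad3 on the minus strand at chr9:63757995-63758244.
Tgfb1: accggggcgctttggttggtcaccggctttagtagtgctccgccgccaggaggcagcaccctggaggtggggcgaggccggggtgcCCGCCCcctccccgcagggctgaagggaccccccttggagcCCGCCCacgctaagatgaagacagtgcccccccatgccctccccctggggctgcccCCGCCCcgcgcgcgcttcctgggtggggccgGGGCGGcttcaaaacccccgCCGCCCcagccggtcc
Smad3: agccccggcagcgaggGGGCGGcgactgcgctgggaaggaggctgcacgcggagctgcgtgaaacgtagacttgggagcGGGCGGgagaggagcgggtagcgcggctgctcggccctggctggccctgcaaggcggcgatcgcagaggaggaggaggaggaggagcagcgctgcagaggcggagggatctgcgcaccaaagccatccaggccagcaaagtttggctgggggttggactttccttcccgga
Windows of this kind were used for 6 of the 10 members, Tgfbr1 having a pair of start sites, and none was used for Tgfb3, Smad2, Smad4 or Smad7. The Tgfb1 window held 5 GC boxes and 75.2% G or C, and the Smad3 window 2 GC boxes and 69.2%, against a median of 52.4% over 32851 windows of the same length. GC boxes were also found 4 times in the Smad6 window and 2 times in the upstream window of Tgfbr1. At least 1 GC box occurred in 32.7% of all windows. The STAT motif TTCNNNGAA, the Smad palindrome GTCTAGAC and the AP-1 motif TGANTCA, searched on both strands, had no match in the windows of these 6 members. They occurred in 7.02%, 0.167% and 6.75% of all windows. The promoters of Tgfb3, Smad2, Smad4 and Smad7 were not searched for any motif. The shorter Smad motif CAGACA was matched once in the Tgfb2 window and once in the downstream window of Tgfbr1, and occurred in 17.1% of all windows. These matches describe the letters of the windows only, and no overlap between motifs was removed.

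The median log2 signal of an array was 5.51 to 5.67. The mean of the olfactory and vomeronasal receptor genes ran from 3.83 on Jak2VF replicate 2 to 4.32 on WT replicate 3. The part of this range in the member differences was not tested, and the number of arrays limits the precision of every value. Of 12 measured LT-HSC markers, 11 exceeded the 95th percentile of the olfactory and vomeronasal receptor genes (6.10, 1394 genes), which served as a yardstick for background signal. The mean of these 12 markers, relative to the WT mean, was lower on all 6 mutant arrays than on any WT array, at -0.02 to 0.03 in WT, -0.24 to -0.15 in Jak2VF and -0.25 to -0.03 in Jak2VF EZH2-/-, although none of the 12 passed the adjusted threshold used below. In Jak2VF against WT, 9 of the 12 differences were negative and 3 positive. Lower without overlap were 4 of the 12, among them Mecom (-0.70), Procr (-0.64) and Mllt3 (-0.56) (adjusted p 0.863 for Mecom and 0.868 for the others). Gata2 was higher without overlap (0.47, adjusted p 0.924). Over all genes, 2.57% were lower and 3.54% higher without overlap. Cd34 and Flt3, the genes of the antigens CD34 and CD135 absent at the gate, exceeded the 95th percentile of the receptor genes as well (means over 9 arrays 10.27 and 7.54). Ezh2 signal was 0.59 lower in Jak2VF EZH2-/- than in Jak2VF on the log2 scale (SE 0.16) with no overlap between groups, but its adjusted p was 0.411, and the labels do not say whether the probe set covers the deleted segment. Jak2 differed by 0.25 in Jak2VF against WT (adjusted p 0.924) and by -0.46 in Jak2VF EZH2-/- against Jak2VF (adjusted p 0.539), and Ezh1, the paralogue of Ezh2, by at most 0.17 in any comparison. Replicates 1 and 2 of Jak2VF EZH2-/- carried Y-linked signal (mean log2 values 6.66 and 6.81, against 3.64 to 4.08 elsewhere), and their Xist signal was 4.86 and 4.56, against 10.84 to 11.31 on the other 7 arrays. In these bulk samples, fewer cells of a type and less RNA per cell cannot be told apart.

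None of the 10 members differed between genotypes past the threshold, an adjusted p under 0.05 from limma over all 22180 genes, in any of the 3 comparisons. Of the 10 members 7 exceeded the receptor-gene yardstick, while Tgfb2, Tgfb3 and Smad6 lay below it, so that their signal cannot be separated from background. The Jak2VF mean was the highest of the 3 group means for 6 members, the WT mean was the lowest for 6 members, and in these orders neighbouring groups did not differ past the threshold for any member. Jak2VF replicate 2 was the highest of all 9 arrays for 4 members, namely Tgfb1, Tgfbr2, Smad2 and Smad3.

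**Figure D1:**
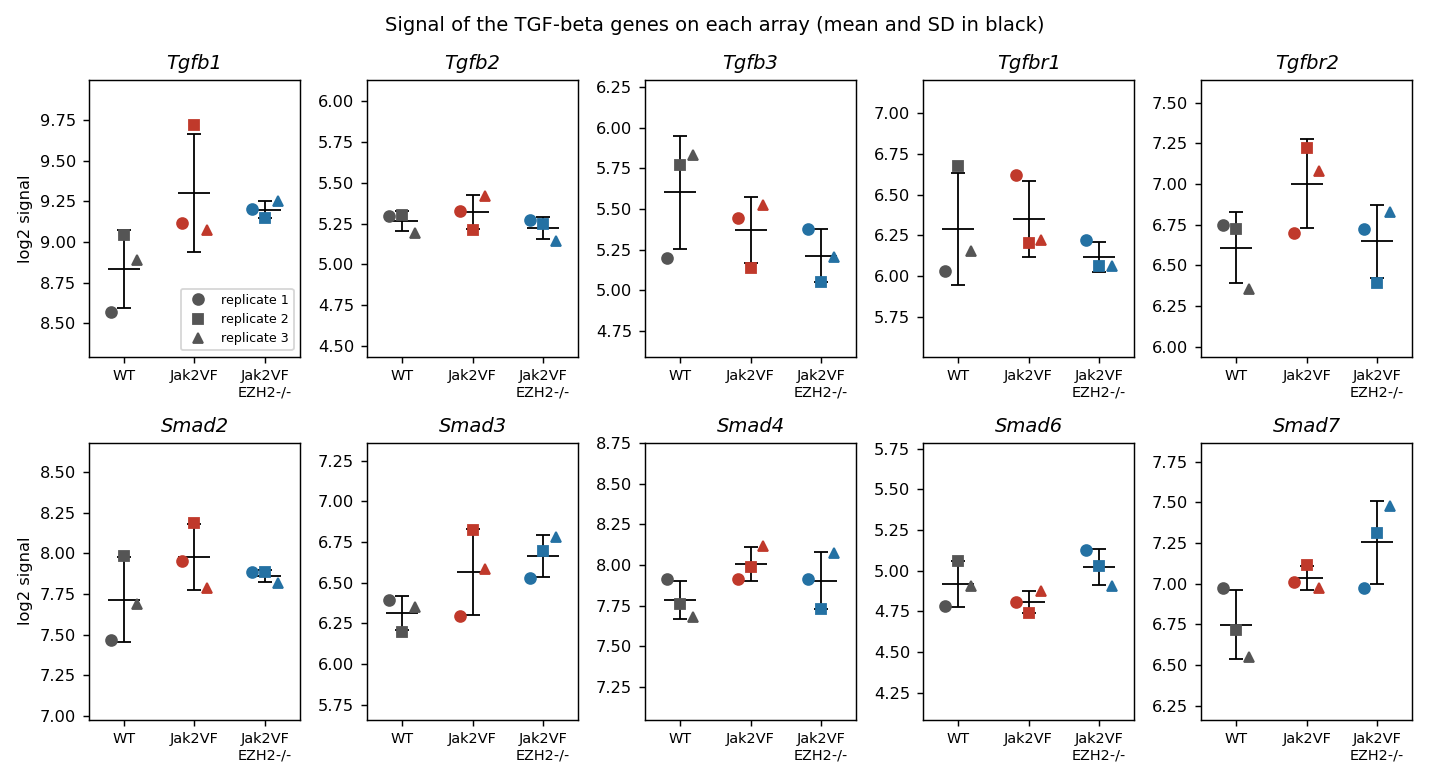
Log2 signal of each member on each array, grouped by genotype, with replicates 1, 2 and 3 as circles, squares and triangles and the group mean and SD in black. Every panel spans the same log2 range around its own centre, so that spread can be compared between genes and levels cannot. Tgfb1 and Smad3 lie higher on all Jak2VF EZH2-/- arrays than on any WT array, and the other members overlap or touch between these groups.

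Tgfb1 encodes the ligand that predominates in blood cells. Its log2 signal was 8.57, 9.04 and 8.89 on the WT arrays, 9.12, 9.72 and 9.07 on the Jak2VF arrays and 9.20, 9.14 and 9.25 on the Jak2VF EZH2-/- arrays. All 6 arrays of the mutant genotypes thus lay above all WT arrays, by as little as 0.03 for Jak2VF replicate 3 against WT replicate 2. The group means were 8.83 ± 0.24, 9.30 ± 0.36 and 9.20 ± 0.05 (SD, n = 3 each). Jak2VF exceeded WT by 0.47 on the log2 scale, or 1.38-fold, with a 95% interval of 0.04 to 0.90. The limma p was 0.0356 before adjustment and 0.924 after it, and 3.14% of all genes had a p as small in this comparison. Without Jak2VF replicate 2 the difference was 0.26, and without WT replicate 1 it was 0.34. It was largest, at 0.585, without Jak2VF replicate 3. Jak2VF EZH2-/- exceeded WT by 0.37 (interval -0.07 to 0.80, adjusted p 0.631) and differed from Jak2VF by -0.10 (interval -0.53 to 0.33, adjusted p 0.945). Without WT replicate 1, Jak2VF EZH2-/- exceeded WT by 0.23, and this difference was at most 0.471 on leaving out any 1 array.

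Few genes of any kind passed the threshold, and the means of several lists of markers of other blood cells lay apart between the genotypes. No megakaryocyte and platelet or mast cell and basophil marker passed in Jak2VF against WT, where 0 of 22180 genes did. Against Jak2VF, Jak2VF EZH2-/- had Itga2b lower and Cma1 higher (limma adjusted p 0.0441 each), where 10 of all genes passed (0.0451%). Against WT it had Cma1 higher (limma adjusted p 0.0459), where 5 of all genes passed (0.0225%). The mean of 10 measured megakaryocyte and platelet markers, relative to the WT mean, lay between -0.05 and 0.10 in WT, between 0.11 and 0.56 in Jak2VF, and between -0.35 and -0.11 in Jak2VF EZH2-/-. Its highest value was that of Jak2VF replicate 2, which was also the highest array for Tgfb1. On the Jak2VF EZH2-/- arrays the mean of this list lay below that of all WT arrays, and the Tgfb1 signal lay above that of all WT arrays. In this comparison 2 of the 10 markers were lower without overlap, where 6.62% of all genes were. Among the list's defining genes Pf4 (platelet factor 4) averaged 9.27, 9.85 and 9.17 in WT, Jak2VF and Jak2VF EZH2-/-, and Itga2b (integrin alpha-IIb) 7.12, 8.29 and 6.84. Pf4 overlapped between Jak2VF and WT. Of the 10 markers, 8 differences were positive and 2 negative in Jak2VF against WT. In Jak2VF EZH2-/- against WT 2 were positive and 8 negative. The mean of 8 mast cell and basophil markers lay between -0.10 and 0.11 in WT, between 0.47 and 1.02 in Jak2VF and between 0.87 and 1.39 in Jak2VF EZH2-/-. Cpa3 (mast cell carboxypeptidase) averaged 7.10, 8.54 and 8.87. The LT-HSC marker mean, given above, was below WT on the same 6 mutant arrays on which Tgfb1 was above WT. The part of all these markers in the Tgfb1 differences was not tested.

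Tgfb2 and Tgfb3, the other ligands, gave signal in the range of the receptor genes. Tgfb2 lay between 5.14 and 5.42 on all 9 arrays with overlapping groups, and its differences in the 3 comparisons were between -0.10 and 0.06. Tgfb3 read 5.20, 5.77 and 5.83 on the WT arrays, 5.44, 5.14 and 5.53 on the Jak2VF arrays and 5.38, 5.05 and 5.21 on the Jak2VF EZH2-/- arrays. WT replicates 2 and 3 were the highest arrays and WT replicate 1 lay among the mutants, so the groups overlapped. The difference between Jak2VF EZH2-/- and WT was -0.39 (interval -0.82 to 0.04, adjusted p 0.61), and without WT replicate 1 it was -0.59 (adjusted p 0.738). With other arrays left out 1 at a time it was as small as -0.27.

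The type II receptor Tgfbr2, which binds the ligand, read 6.75, 6.72 and 6.36 on the WT arrays, 6.70, 7.22 and 7.08 on the Jak2VF arrays and 6.72, 6.39 and 6.83 on the Jak2VF EZH2-/- arrays. Jak2VF replicates 2 and 3 were above every other array, and Jak2VF replicate 1 lay within the range of both other groups. Jak2VF exceeded WT by 0.39 (SE 0.19, interval -0.02 to 0.81, adjusted p 0.924), and Jak2VF EZH2-/- was below Jak2VF by a similar amount, -0.35 (SE 0.19, interval -0.77 to 0.06, adjusted p 0.745). Both values share the Jak2VF arrays. With only the Jak2VF EZH2-/- array that lacked Y-linked signal kept, the latter difference was -0.17, and without Jak2VF EZH2-/- replicate 2 it was -0.23. With other arrays left out 1 at a time it reached -0.506. Between Jak2VF EZH2-/- and WT the difference was 0.04, with an interval from -0.38 to 0.45.

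The type I receptor Tgfbr1, the kinase that phosphorylates Smad2 and Smad3, was close to the background yardstick, at 6.03, 6.68 and 6.16 on the WT arrays, 6.62, 6.20 and 6.22 on the Jak2VF arrays and 6.22, 6.06 and 6.06 on the Jak2VF EZH2-/- arrays. Each of the WT and Jak2VF groups held a high array, and the groups overlapped. The differences were 0.06 for Jak2VF against WT, -0.23 for Jak2VF EZH2-/- against Jak2VF and -0.17 for Jak2VF EZH2-/- against WT, with intervals that all included 0. Without Jak2VF replicate 1, the high array of its group, the difference of Jak2VF EZH2-/- from Jak2VF was -0.10. With other arrays left out 1 at a time it reached -0.305.

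Smad2 and Smad3 are the transcription factors activated by Tgfbr1. Smad2 read 7.47, 7.99 and 7.69 on the WT arrays, 7.95, 8.19 and 7.79 on the Jak2VF arrays and 7.88, 7.88 and 7.82 on the Jak2VF EZH2-/- arrays. The WT and Jak2VF arrays spread widely and overlapped, and the Jak2VF EZH2-/- arrays lay within that spread with an SD of 0.04. Smad2 in Jak2VF exceeded WT by 0.26 (interval -0.10 to 0.62, adjusted p 0.924). Without WT replicate 1 the difference was 0.14, without WT replicate 2 it was 0.40, and without Jak2VF replicate 2 it was 0.15.

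Smad3 read 6.40, 6.19 and 6.35 on the WT arrays, 6.30, 6.82 and 6.58 on the Jak2VF arrays and 6.53, 6.69 and 6.78 on the Jak2VF EZH2-/- arrays. The Jak2VF EZH2-/- arrays were all higher than the WT arrays, with a gap of 0.13, and Jak2VF overlapped both. The difference between Jak2VF EZH2-/- and WT was 0.35, or 1.28-fold, with a 95% interval of 0.004 to 0.700. The limma p was 0.0478 before adjustment and 0.578 after it, and 8.26% of all genes had a p as small in this comparison. Jak2VF exceeded WT by 0.25 (adjusted p 0.924), and Jak2VF EZH2-/- exceeded Jak2VF by 0.10 (adjusted p 0.934). Leaving out Jak2VF replicate 2 brought the excess of Jak2VF over WT to 0.13, and leaving out its replicate 1 brought it to 0.39.

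Smad4, the shared partner of the receptor-regulated Smads, read 7.91, 7.76 and 7.68 on the WT arrays, 7.91, 7.99 and 8.12 on the Jak2VF arrays and 7.91, 7.73 and 8.08 on the Jak2VF EZH2-/- arrays. Its value on replicate 1 was the same in all 3 groups, and the groups touched or overlapped. Jak2VF exceeded WT by 0.22 (interval -0.08 to 0.53, adjusted p 0.924). The other differences were -0.10 against Jak2VF and 0.12 against WT for Jak2VF EZH2-/-. On leaving out 1 array these ranged from -0.19 (without Jak2VF EZH2-/- replicate 3) to -0.01 (without its replicate 2) and from 0.04 to 0.21 (without the same replicates). Against Jak2VF the value was -0.04 without Jak2VF replicate 3, and against WT it was 0.07 on leaving out WT replicate 3 and 0.18 on leaving out its replicate 1.

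Smad7 is the feedback inhibitor that competes for Tgfbr1 and brings ubiquitin ligases to it, and it had the smallest p of all members. Its signal was 6.98, 6.72 and 6.55 on the WT arrays, 7.01, 7.12 and 6.98 on the Jak2VF arrays and 6.98, 7.31 and 7.48 on the Jak2VF EZH2-/- arrays. The group means ran from 6.75 ± 0.21 in WT to 7.03 ± 0.07 in Jak2VF and 7.25 ± 0.26 in Jak2VF EZH2-/- (SD, n = 3 each), and WT replicate 1 held the same value as the lowest array of each mutant genotype. Jak2VF EZH2-/- exceeded WT by 0.51 on the log2 scale, or 1.42-fold, with a 95% interval of 0.14 to 0.87. The limma p was 0.0116 before adjustment and 0.47 after it, the latter between 0.322 and 0.802 over the other settings tried, and 2.47% of all genes had a p as small in this comparison. Jak2VF exceeded WT by 0.29 (adjusted p 0.924), and Jak2VF EZH2-/- exceeded Jak2VF by 0.22 (adjusted p 0.832). The former was 0.19 without WT replicate 3 and at most 0.4 on leaving out any 1 array. The difference of Jak2VF EZH2-/- from Jak2VF was 0.11 without Jak2VF EZH2-/- replicate 3 and 0.36 without its replicate 1. Over all 3 groups at once, the moderated F test of Smad7 gave a p of 0.035 before adjustment and 0.688 after it.

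The highest Smad7 value was that of Jak2VF EZH2-/- replicate 3, the array of its group without Y-linked signal. Without both arrays that carried Y-linked signal, the Smad7 difference from WT was 0.73. That value rests on 1 Jak2VF EZH2-/- array, assumed to vary like the arrays of the other groups, and had an adjusted p of 0.802. On that array the mean of 11 T and NK cell markers was 0.79 above WT, that of the mast cell and basophil markers 1.39 and that of 10 neutrophil markers 1.09, each the highest of all 9 arrays. The mean of 7 B cell markers was 1.04 above WT on that array, against -0.20 to 0.14 on the other 8. Of these 7 only Cd79b exceeded the background yardstick, and its difference between Jak2VF EZH2-/- and WT was -0.555 (adjusted p 0.61). Of the 10 neutrophil markers 6 exceeded the yardstick, and in the same comparison 8 differences were positive and 2 negative. The T and NK cell mean lay between -0.13 and 0.14 in WT, between 0.05 and 0.26 in Jak2VF and between 0.51 and 0.79 in Jak2VF EZH2-/-. The defining T cell genes Cd3e, Cd3g and Cd3d stayed below the background yardstick, with group means from 4.54 to 5.54. The part of these markers in the Smad7 and Smad3 differences was not tested.

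Smad6, the other inhibitory Smad, read 4.78, 5.06 and 4.91 on the WT arrays, 4.81, 4.74 and 4.88 on the Jak2VF arrays and 5.13, 5.03 and 4.91 on the Jak2VF EZH2-/- arrays, all below the background yardstick. The Jak2VF EZH2-/- arrays were above the Jak2VF arrays by a gap of 0.03 and overlapped WT. The difference from Jak2VF was 0.21 (interval -0.07 to 0.49, adjusted p 0.776).

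In Jak2VF against WT, 8 of 10 members had a positive difference, all but Tgfb3 and Smad6, and the median member difference was 0.24, against 0.03 over all genes, of which 55.8% were positive. No member passed, and neither did any of the 22180 genes (0%). 1 member, Tgfb1, had an unadjusted p under 0.05, where 4.66% of all genes did. 1 member, again Tgfb1, had its Jak2VF arrays above all WT arrays, where 3.54% of all genes did, and 0 members had them below, where 2.57% of all genes did. The median without Jak2VF replicate 2 was 0.14. The 10 members share arrays and are not replicates of the condition.

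In Jak2VF EZH2-/- against Jak2VF, 7 of 10 members had a negative difference, the exceptions being Smad3, Smad6 and Smad7, and the median was -0.10, against -0.04 over all genes, of which 41.8% were positive. No member passed, where 0.0451% of all genes did (10 genes, and 0 to 17 on leaving out 1 array), and 0 members had an unadjusted p under 0.05, where 6.89% of all genes did. Smad6 alone had non-overlapping groups, upwards, where 4.18% of all genes did, and 0 members did so downwards, where 6.94% of all genes did.

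In Jak2VF EZH2-/- against WT, 7 of 10 members had a positive difference, with a median of 0.11 against -0.02 over all genes, of which 46.5% were positive. No member passed, where 0.0225% of all genes did (5 genes, and 0 to 14 on leaving out 1 array). Smad7 and Smad3 had an unadjusted p under 0.05, where 8.6% of all genes did. Tgfb1 and Smad3 had non-overlapping groups upwards, where 6.28% of all genes did, and 0 members did so downwards, where 6.62% of all genes did. In the moderated F test over all 3 groups, 0 of 10 members passed, where 0.0271% of all genes did, and Smad7 alone had an unadjusted p under 0.05, where 6.88% of all genes did. The 95% intervals allowed differences of up to 0.90 on the log2 scale for Tgfb1 in Jak2VF.

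**Figure D2:**
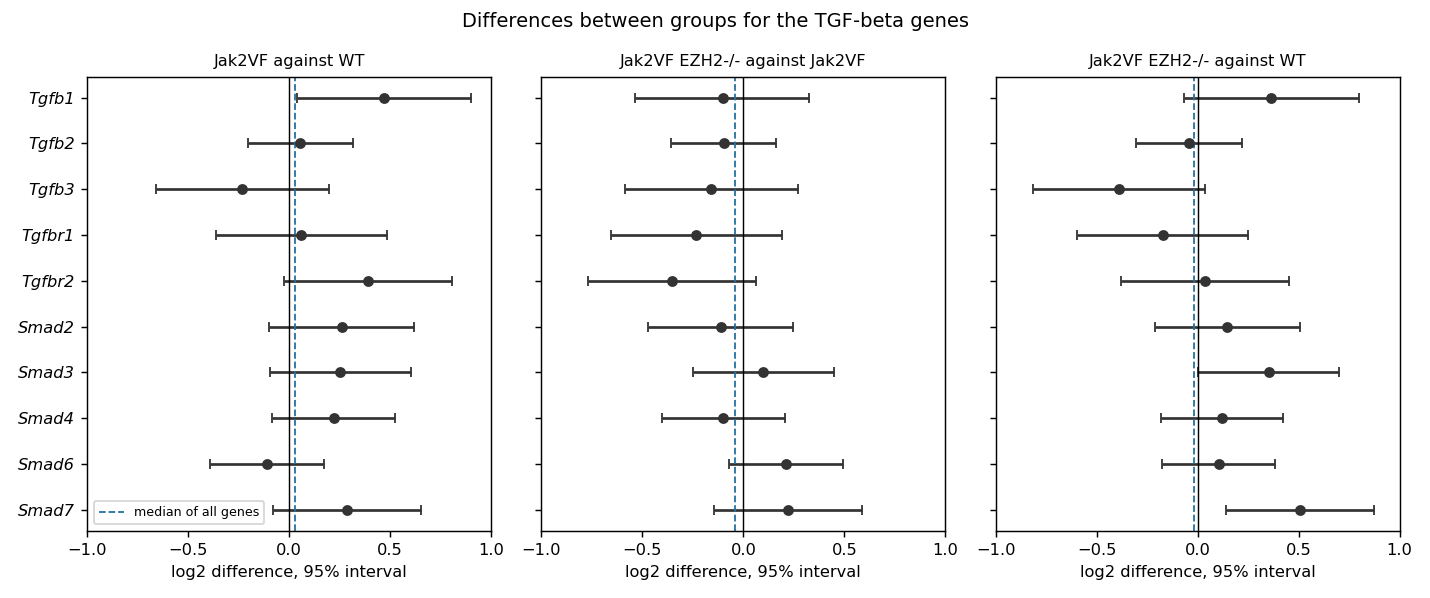
Log2 difference of each member in the 3 comparisons, with the 95% interval of the limma fit, a solid line at 0 and a dashed line at the median of all genes. The intervals exclude 0 for Tgfb1 in Jak2VF against WT and for Smad3 and Smad7 in Jak2VF EZH2-/- against WT, before adjustment for the number of genes tested.

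The other genes of the pathway were followed in 7 lists holding 122 genes, of which 116 were measured. No gene of any list passed the adjusted threshold in any comparison. Over all genes, 55.8% of differences were positive in Jak2VF against WT, 41.8% in Jak2VF EZH2-/- against Jak2VF and 46.5% in Jak2VF EZH2-/- against WT. The medians over all genes were 0.03, -0.04 and -0.02 in that order. Between WT and Jak2VF the list means on single arrays overlapped for all 7 lists. Between WT and Jak2VF EZH2-/- the means of the TGF-beta target genes did not overlap. Relative to the WT mean they were -0.053 to 0.043 in WT and 0.074 to 0.265 in Jak2VF EZH2-/-. The means of the BMP and activin branch were narrowly apart, at -0.001 to 0.001 and 0.005 to 0.024, and the other lists overlapped. The genes named below are those with the smallest p in their list, and their differences are given as values.

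Of 16 measured genes that store or activate the latent ligand, 9 had a positive and 7 a negative difference in Jak2VF against WT, with a median of 0.03. Itgb8, the integrin subunit that helps free TGF-beta from its latent complex, read 5.71, 5.28 and 5.47 in WT and 5.22, 5.03 and 4.91 in Jak2VF EZH2-/-. Its Jak2VF EZH2-/- arrays were all below the WT arrays, by 0.43 on average (adjusted p 0.526), and all of these values were below the background yardstick.

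Among 13 co-receptors and receptor regulators, Tgfbr3 had the smallest p in Jak2VF against WT. Tgfbr3 encodes betaglycan, which presents ligand to the type II receptor. It read 7.05, 7.13 and 7.08 on the WT arrays, 7.42, 7.82 and 7.48 on the Jak2VF arrays and 7.24, 7.25 and 7.24 on the Jak2VF EZH2-/- arrays. The 3 groups did not overlap, with Jak2VF highest and WT lowest. The difference between Jak2VF and WT was 0.49 (SE 0.13, unadjusted p 0.00436, adjusted p 0.924), and that between Jak2VF EZH2-/- and Jak2VF was -0.33 (SE 0.13, adjusted p 0.683). The list as a whole had 7 of 13 positive differences in Jak2VF against WT and a median of 0.01.

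In the BMP and activin branch, 13 of 21 genes were positive in Jak2VF against WT, with a median of 0.02. Smad1, the receptor-regulated Smad of the BMP branch, was 0.43 higher in Jak2VF than in WT (adjusted p 0.924) and differed by -0.42 in Jak2VF EZH2-/- against Jak2VF (adjusted p 0.711). Acvr2a, a type II activin receptor, was 0.35 higher in Jak2VF than in WT with no overlap (adjusted p 0.924), at a mean signal of 5.88. Bmpr1a, a type I BMP receptor, was 0.58 higher in Jak2VF EZH2-/- than in Jak2VF with no overlap (adjusted p 0.641). The mean signals of Acvr2a and Bmpr1a were below the background yardstick.

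Of 17 Smad ubiquitin ligases, phosphatases and co-repressors, 15 were positive in Jak2VF against WT (median 0.09) and 15 negative in Jak2VF EZH2-/- against Jak2VF (median -0.10). These comparisons share the Jak2VF arrays. Tgif1, a co-repressor that binds Smad2, was 0.49 higher in Jak2VF than in WT without overlap (adjusted p 0.924), and the difference of Jak2VF EZH2-/- from Jak2VF was -0.45 (adjusted p 0.7). Smurf2, a ubiquitin ligase that Smad7 recruits, was 0.37 higher in Jak2VF than in WT, again without overlap (adjusted p 0.924).

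All 10 measured partner transcription factors and co-activators had positive differences in Jak2VF against WT, with a median of 0.18. Runx3, a partner of Smad3, was 0.62 higher in Jak2VF than in WT with overlapping arrays (adjusted p 0.924). Runx1 read 7.35, 7.78 and 7.60 in WT and 7.97, 7.94 and 8.29 in Jak2VF EZH2-/-, a difference of 0.49 without overlap (adjusted p 0.531). Of 11 genes of the non-Smad arm, 9 were positive in Jak2VF against WT and 9 in Jak2VF EZH2-/- against WT, with medians of 0.19 and 0.14. Pard6a, a polarity protein phosphorylated by Tgfbr2, differed by 0.44 between Jak2VF EZH2-/- and WT (adjusted p 0.502) at a mean signal of 6.00, below the background yardstick, and the small GTPase Rhoa by 0.35 (adjusted p 0.574).

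The list of TGF-beta target genes held 32 measured genes, 12 of them above the background yardstick. In Jak2VF against WT 20 were positive (median 0.11), in Jak2VF EZH2-/- against Jak2VF 12 (median -0.02), and in Jak2VF EZH2-/- against WT 24 (median 0.09). The list was not divided by the direction in which TGF-beta changes each gene, so these counts do not measure pathway activity. Id2, an inhibitor of basic helix-loop-helix factors, read 6.72, 6.23 and 6.75 on the WT arrays, 5.54, 6.15 and 6.62 on the Jak2VF arrays and 7.86, 7.80 and 7.57 on the Jak2VF EZH2-/- arrays. Its Jak2VF EZH2-/- arrays lay above all others, by 1.64 against Jak2VF (SE 0.26, adjusted p 0.0934) and by 1.18 against WT (SE 0.26, adjusted p 0.27). The mean of the T and NK cell markers was likewise highest on these 3 arrays, although against Jak2VF 3 of the 11 markers were higher and 3 lower without overlap. Over all genes, 4.18% were higher and 6.94% lower without overlap in that comparison. The part of the T and NK cell markers in the Id2 differences was not tested.

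Itgb7, an integrin subunit induced by TGF-beta in lymphocytes, read 5.98, 5.99 and 5.93 on the WT arrays, 6.25, 6.61 and 6.94 on the Jak2VF arrays and 6.38, 6.78 and 6.68 on the Jak2VF EZH2-/- arrays. Both mutant groups lay above WT without overlap, by 0.63 (adjusted p 0.924) and 0.65 (adjusted p 0.438). The mean of the mast cell and basophil markers lay above WT without overlap in both groups as well. Of these 8 markers, 5 in Jak2VF and 7 in Jak2VF EZH2-/- were above WT without overlap, where 3.54% and 6.28% of all genes were. The part of these markers in the Itgb7 differences was not tested. The quiescence gene Cdkn1c, which encodes the cell cycle inhibitor p57, differed by -0.15 in Jak2VF against WT (adjusted p 0.944) and by 0.28 in Jak2VF EZH2-/- against Jak2VF (adjusted p 0.799). Cdkn1c and Klf10, the latter at -0.06 in Jak2VF against WT (adjusted p 0.984), were named after their values were seen.

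**Figure D3:**
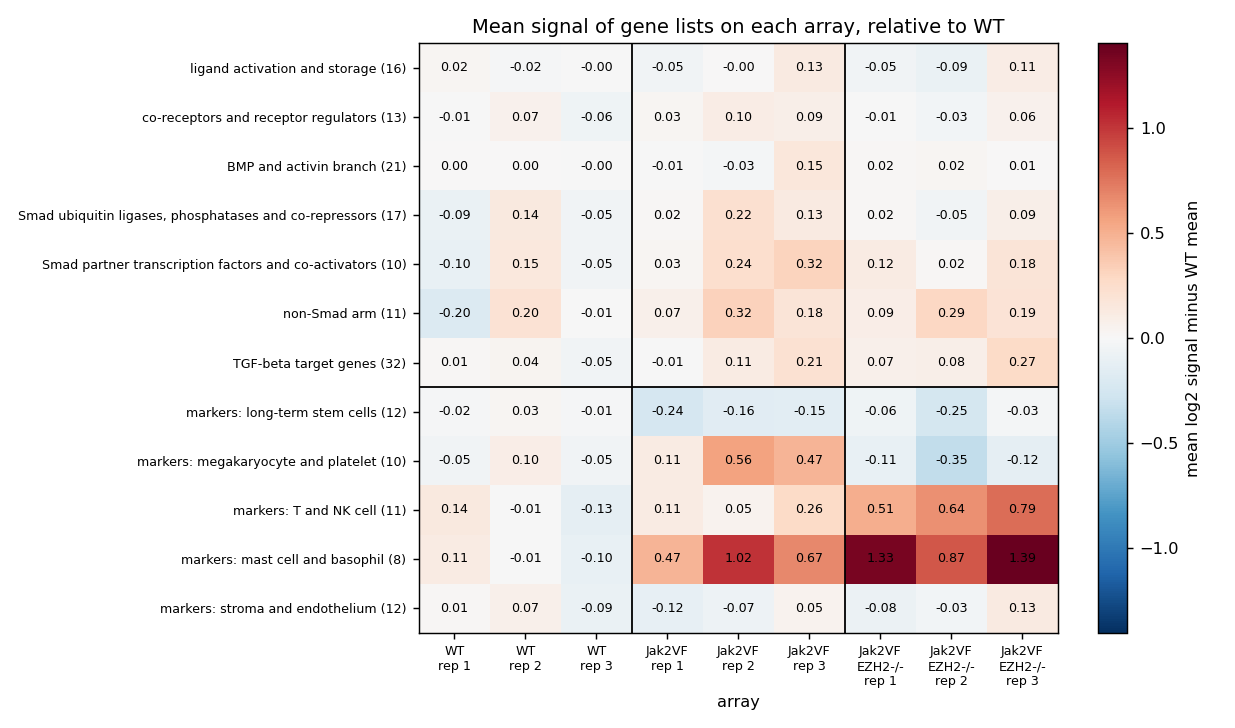
Mean log2 signal of gene lists on each array minus the WT mean, with the number of measured genes in parentheses. Colour runs from blue (lower) to red (higher). Pathway lists are above the line. Below it are markers of LT-HSC, megakaryocytes and platelets, T and NK cells, mast cells and basophils, and stroma and endothelium. The other marker lists are not drawn, and of these the neutrophil and B cell means reached 1.09 and 1.04 on Jak2VF EZH2-/- replicate 3. The pathway lists stay between -0.20 and 0.32 on every array, while the mast cell and basophil markers reach 1.39 and the T and NK cell markers 0.79 in Jak2VF EZH2-/-.

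The genes whose pattern was most like that of Smad7 over the 9 arrays were sought among 17269 genes. The highest Pearson correlations were those of Ccl17 (0.955), Dll4 (0.946), Junb (0.940), Ntng2 (0.939) and Tro (0.928), and the lowest those of Cct8l1 (-0.955), Cpne9 (-0.940) and Csmd2os (-0.939). Junb, an AP-1 subunit and a gene of the target list, was the only one of these 8 above the background yardstick, and it differed by 0.41 between Jak2VF EZH2-/- and WT (adjusted p 0.574). Among the other members the correlation with Smad7 was 0.769 for Smad3, -0.857 for Tgfb3 and 0.412 for Tgfb1. These correlations describe 9 arrays that share their processing and group structure, and the genes were picked as extremes.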

How the data were processed

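Per the labels' protocols, 10 ng of RNA purified on RNeasy Plus Mini columns went into Ovation Pico WTA V2 amplification and biotin labelling. The deposited table holds the authors' log2 values of 41345 probe sets, 36.9% of which hold exactly equal values on some arrays, 6 members included. The submitters' processing notes name Partek 6.6, but how probes were background-corrected, normalized and summarised is not stated there, so no further normalization was applied. Of the probe sets, 23521 had 1 gene symbol, 1814 several and 16010 none here, which left 22180 genes.

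Differences were fitted by the lmFit and eBayes steps of limma 3.58.1 (R 4.3.3) over all 9 arrays, with 3 contrasts and Benjamini-Hochberg adjustment over all genes. The p-values measure the spread between the replicates the labels call biological. The fit was tested on simulated data with planted differences larger than those of any member. That test does not cover differences of the members' size. Members and lists were chosen with earlier results of these data known. All members were named, and in each list and comparison the genes that passed or, with none, up to 3 with the smallest p, plus 5 genes most like and 3 least like the member of smallest p (predicted, RIKEN, small RNA and receptor genes left out). Same-numbered replicates did not consistently deviate together from their group means. Alternatives covered variance estimation, scaling, filters, probe set choice, covariates and left-out arrays.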

Additional observations from a re-analysis of the deposited data

How the results depend on the processing

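Over 21 other settings no member passed an adjusted p of 0.05 in any comparison, the smallest being 0.322. Of 621 member values 15 changed sign, 9 of them on leaving out 1 array, and 22 of the 30 member differences kept their sign throughout. The median of the members in Jak2VF against WT lay between 0.143 (without Jak2VF replicate 2) and 0.270 on leaving out 1 array. Changing sign on leaving out 1 array, the difference ranged from -0.075 to 0.255 for Tgfbr1 in Jak2VF against WT, from -0.219 to 0.105 for Tgfb1 and -0.038 to 0.227 for Smad3 in Jak2VF EZH2-/- against Jak2VF, and from -0.302 to 0.022 for Tgfbr1 and -0.089 to 0.165 for Tgfbr2 in Jak2VF EZH2-/- against WT. With a sex covariate, or without both arrays with Y-linked signal (which leaves 1 Jak2VF EZH2-/- array), Smad4 was 0.071 against Jak2VF and Smad6 -0.011 against WT. Tgfb2 against WT was 0.022 after quantile normalization and 0.001 after median centring. The cause was not tested. Deviations from group means correlated between -0.231 and 0.484 for same-numbered replicates, highest for replicate 2 of WT and Jak2VF. Those with different numbers ranged from -0.502 to 0.333. With 3 arrays per group, whether some arrays share a batch cannot be told from these correlations. With the replicate block 0 of 22180 genes passed in Jak2VF EZH2-/- against Jak2VF and 0 against WT, in place of 10 and 5, and 0 members passed in any comparison. Leaving out 1 array moved these counts between 0 and 17 and between 0 and 14. With ordinary least squares, and with only the groups compared, 0 genes passed in any comparison. Signal near background limits Tgfb2, Tgfb3 and Smad6.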
